A study of Mus musculus with 16 samples.

Results

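Mammary glands of grouped SV40 T antigen mice at 20 weeks of age were compared with those at 15 weeks. The members were chosen by their titles: 4 arrays of grouped mice at 20 weeks and 4 at 15 weeks, 8 of the 16 arrays in the series. All mice were female, of strain FVB/N, and homozygous for a transgene that encodes SV40 large Tag, driven by the C3(1) fragment of the promoter of the prostatic steroid binding protein gene of the rat. They were weaned at 3 weeks and housed with other females until they were killed in estrus, 6 hours into the dark phase. RNA came from the whole thoracic gland and was hybridised to Affymetrix mouse arrays. The other 8 arrays are from mice of the same genotype and ages that were housed alone, and serve here only as a second age comparison. Both ages carry the transgene, no array of a mouse without it was analysed here, and the labels do not say how much of each gland was tumour.

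Large T antigen binds the retinoblastoma protein Rb and the tumour suppressor p53. Rb normally holds back E2F transcription factors, which switch on genes for DNA replication, so cells in which T antigen occupies Rb can enter the cell cycle without the usual signals. In C3(1)/Tag females the transgene is expressed in mammary epithelium, which passes through hyperplasia and intraepithelial lesions to invasive carcinoma. The mammary gland around it is mostly a fat pad, with fibroblasts, vessels, immune cells and, in the thoracic gland, adjoining skeletal muscle.

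The limit of the comparison lies in its design. As deposited, the values had 1 distribution at 15 weeks and another at 20 weeks. The mean absolute difference of sorted log2 values was 0.0223 between arrays of the same age and 0.231 between ages. Array medians lay at 8.09 to 8.11 at 15 weeks and at 8.32 to 8.34 at 20 weeks. Bacterial and unspiked control probe sets, which no mouse RNA should reach, were 0.17 higher at 20 weeks on the log2 scale (27 probe sets, two-sided exact permutation p = 0.0286, the smallest that 4 against 4 arrays allow). After quantile normalization of the 8 arrays this difference was -0.02 (exact permutation p = 0.229). A processing run that differed between the ages and the age itself cannot be told apart, in any result below. RNA quality was gauged from control probe sets at the 3' and 5' ends of a transcript. Their 3' minus 5' difference for Gapdh was -0.06 ± 0.03 (SD, n = 4) at 15 weeks and -0.01 ± 0.03 at 20 weeks (exact permutation p = 0.0857). For actin it was 0.26 ± 0.04 and 0.22 ± 0.06 (exact permutation p = 0.371). With no read depth in array data, precision is set by the 4 arrays per age. As markers of the labelled tissue, the luminal keratin Krt8 lay at 11.88 or more and the milk protein Csn2 at 10.58 or more on all 8 arrays.

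A large share of the transcriptome differed between the ages. Of 18193 genes, 7022 (38.6%) passed an adjusted p of 0.05 in limma, 3505 (19.3%) higher and 3517 (19.3%) lower at 20 weeks. These shares are the background against which each gene list below is read, beside a median log2 difference of 0.00 over all genes. The 2 ages did not overlap in 6699 genes (36.8%), 3313 (18.2%) with all 20-week arrays higher and 3386 (18.6%) with all lower. Most differences were modest: 53 of the higher and 160 of the lower genes differed at least 2-fold, and 72 genes, 21 higher and 51 lower, passed a test against a log2 difference of 0.5. The split between directions depends on the scaling. It was 49.9% higher after quantile normalization and 63.3% with arrays centred on the bacterial and unspiked controls. With the deposited values as they stood it was 89.7%, and the median of all genes was 0.23. There 10196 of the 18193 genes passed as higher and 1166 as lower. List counts given below for the deposited values are read against these numbers, not against 19.3%. With the Gapdh 3' minus 5' difference as a covariate 1927 genes passed.

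**Figure D1:**
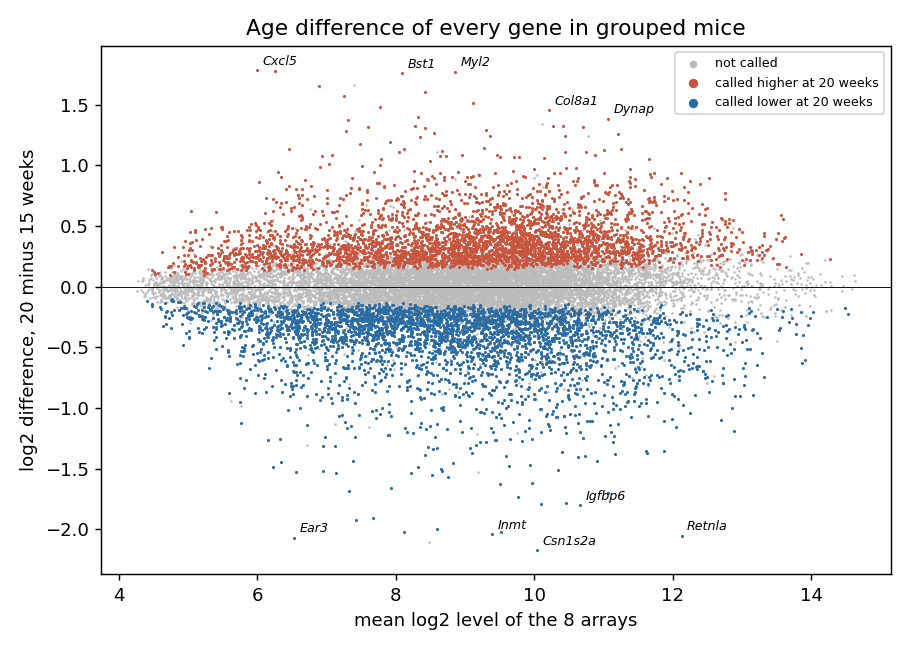
Each point is 1 of 18193 genes, with its mean log2 level over the 8 arrays on the x axis and its log2 difference, 20 minus 15 weeks, on the y axis. Red points are the 3505 genes called higher and blue points the 3517 called lower, and they occur at every level. Points at the left end have levels near the background of the array.

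Genes of DNA replication and mitosis were higher at 20 weeks. Of 23 measured replication genes 17 passed as higher and 0 as lower, with a median log2 difference of 0.60, against 19.3% of all genes higher and a median of 0.00. Of 24 mitosis genes 22 passed as higher and 0 as lower, with a median of 0.60. Every member of both lists had a positive difference, from 0.06 to 0.83. In whole-gland RNA, a larger share of cells of a kind and more RNA per cell cannot be told apart, here and in every list that follows.

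The replication list holds the licensing factors that load the MCM helicase onto DNA, and the enzymes that then copy it. Mcm6, a helicase subunit, lay at 12.29, 12.01, 11.87 and 12.14 in the 15-week arrays and at 12.60, 12.75, 12.55 and 12.80 in the 20-week arrays (log2 level, replicates 1 to 4). The groups did not overlap, and replicate 3 was the lowest array at either age. The difference was 0.60 (SE 0.10, 1.51-fold, adjusted p = 0.00223). Its partners moved alike: Mcm3 by 0.75 (SE 0.14, adjusted p = 0.00344), Mcm4 by 0.74 and Mcm2 by 0.70. Of the 5 probe sets of Mcm3, 4 had a higher mean at 20 weeks. Cdt1, which brings the helicase to origins, rose by 0.78 (SE 0.15, adjusted p = 0.0046), from 10.83 ± 0.33 to 11.61 ± 0.18 (SD, n = 4). The array means of the list were 10.87, 10.70, 10.38 and 10.95 at 15 weeks and 11.26, 11.31, 11.06 and 11.31 at 20 weeks, without overlap.

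The mitosis list holds the spindle kinases, the kinetochore proteins and the enzymes that untangle and separate chromosomes. Top2a, the topoisomerase of chromosome segregation, lay at 11.35, 11.00, 10.55 and 11.24 at 15 weeks and at 11.94, 11.88, 11.62 and 12.00 at 20 weeks. Every 20-week array was above every 15-week array, and replicate 3 was again lowest at each age. It rose 1.77-fold (log2 difference 0.83, SE 0.16, adjusted p = 0.00458). Of the 3 probe sets of Top2a, 2 had a higher mean at 20 weeks. The spindle kinase Aurka went from 8.99, 9.05, 8.73 and 9.18 to 9.71, 9.56, 9.44 and 9.59, also without overlap (0.59, SE 0.10, adjusted p = 0.00233). The kinetochore protein Cenpf rose by 0.71 (adjusted p = 0.00332), the checkpoint kinase Ttk by 0.69 (0.00446) and the mitotic kinase Plk1 by 0.62 (0.00531). Of the 3 probe sets of Cenpf, 2 had a higher mean at 20 weeks. The members that did not pass, named after their values were seen, were the spindle factor Tpx2 (0.22) and the transcription factor Foxm1 (0.14). Their probe sets of largest variance, a choice that includes the age difference, did pass, at 0.88 (adjusted p = 0.000299) and 0.53 (0.0127). Such a choice favours probe sets that differ between the ages, so these passes do not settle whether Tpx2 and Foxm1 rose. With the Gapdh control as a covariate 0 replication and 2 mitosis genes passed, while the medians were 0.49 and 0.53.

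Promoters of 4 of these genes are shown because replication and mitosis genes rose together although different factors are known to drive them. E2F factors bind near the start of S phase genes. The DREAM and MuvB complexes act through CHR elements near the start of G2 and M phase genes. The CCAAT box is a separate element that was searched as well. The windows, from RefSeq with the GRCm38.p6 build, run from 250 bases before to 50 after a listed transcript start, 5′ to 3′ on the gene's strand, which is minus for all 4. In the replication genes Mcm6 and Mcm3 the capitals mark E2F words, and in the mitosis genes Aurka and Cenpf they mark the CHR word and CCAAT. The windows of Mcm6 and Mcm3 hold CCAAT on 1 strand or the other too, left unmarked there.
Mcm6 at chr1:128359656-128359955: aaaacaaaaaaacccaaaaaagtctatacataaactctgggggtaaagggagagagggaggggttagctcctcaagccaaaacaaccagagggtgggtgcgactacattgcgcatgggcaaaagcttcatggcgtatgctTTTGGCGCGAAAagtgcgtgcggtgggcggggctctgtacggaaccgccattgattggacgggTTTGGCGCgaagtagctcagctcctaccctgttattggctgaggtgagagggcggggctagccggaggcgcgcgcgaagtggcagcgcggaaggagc
Mcm3 at chr1:20820263-20820562: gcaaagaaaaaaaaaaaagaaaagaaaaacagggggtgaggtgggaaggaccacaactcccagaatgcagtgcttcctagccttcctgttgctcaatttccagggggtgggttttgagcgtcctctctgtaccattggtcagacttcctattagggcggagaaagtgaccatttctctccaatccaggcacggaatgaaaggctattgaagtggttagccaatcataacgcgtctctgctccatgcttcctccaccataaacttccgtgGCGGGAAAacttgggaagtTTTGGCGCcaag
Aurka at chr2:172370521-172370820: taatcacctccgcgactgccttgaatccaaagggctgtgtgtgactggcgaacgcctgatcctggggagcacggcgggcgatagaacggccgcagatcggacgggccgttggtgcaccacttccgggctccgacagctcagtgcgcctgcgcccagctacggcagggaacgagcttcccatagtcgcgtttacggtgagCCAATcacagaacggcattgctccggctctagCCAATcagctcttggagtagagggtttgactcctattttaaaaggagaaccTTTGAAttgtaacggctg
Cenpf at chr1:189688037-189688336: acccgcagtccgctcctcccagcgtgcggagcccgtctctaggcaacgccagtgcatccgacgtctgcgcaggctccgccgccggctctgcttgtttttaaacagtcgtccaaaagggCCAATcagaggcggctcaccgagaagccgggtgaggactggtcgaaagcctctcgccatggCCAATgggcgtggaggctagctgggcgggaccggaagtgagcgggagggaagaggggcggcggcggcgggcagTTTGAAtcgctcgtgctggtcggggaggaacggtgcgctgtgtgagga
The E2F words searched on both strands were TTTCCCGC, TTTGGCGC, TTTCGCGC and TTTGCCGC, where neighbouring words may overlap, as a pair in Mcm6 does. The CHR word was TTTGAA and the CCAAT box CCAAT, also on both strands, and neither overlaps an E2F word in its letters. An E2F word stood in the windows of 10 of 20 replication genes with a listed window (50.0%), against 1 of 19 mitosis genes and 2.6% of 27025 genes. The CHR word stood in 14 of 19 mitosis genes (73.7%), against 4 of 20 replication genes and 20.2% of all genes. CCAAT stood in 16 of 19 mitosis genes (84.2%), 13 of 20 replication genes and 41.1% of all. These shares describe the lists, which are made of known targets of these factors, and say nothing on which factor acted in these glands.

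Genes of the Rb and E2F pathway itself were divided. Of 24 measured, 11 passed as higher and 3 as lower, with a median of 0.23. The deposited values gave 17 higher and 1 lower, and the Gapdh covariate 4 and 1. Ccne1, the cyclin that drives entry into S phase, lay at 8.33, 8.35, 8.27 and 8.50 at 15 weeks and at 9.07, 8.95, 8.99 and 9.10 at 20 weeks. The groups were well apart, with a rise of 0.67 (SE 0.07, adjusted p = 0.000223). The cyclin-dependent kinases Cdk2 (0.57, SE 0.08) and Cdk6 (0.49, SE 0.07), the atypical E2F family member E2f8 (0.64, SE 0.08) and the kinase inhibitor Cdkn2b (0.71, SE 0.13) rose as well, though the 2 probe sets of Cdk2 disagreed in sign. The 3 lower genes, named after their values were seen, were the cyclin Ccnd2 (-0.77, adjusted p = 0.00423), the Rb relative Rbl2 (-0.30, 0.0244) and the kinase inhibitor Cdkn2c (-0.30, 0.0417). Rbl2 missed the threshold without 20-week replicate 1 or 2 (0.0649 and 0.0636), and Cdkn2c without 15-week replicate 2 or 3 or 20-week replicate 2, 3 or 4 (0.0798 to 0.113).

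Genes that repair and signal DNA breaks were mostly higher, 12 of 16 against 1 lower, with a median of 0.31. The Gapdh covariate left 3 higher and 1 lower, with a median of 0.30. Brca1, central to repair by homologous recombination, lay at 9.38, 9.37, 8.97 and 9.49 at 15 weeks and at 10.20, 10.28, 9.95 and 10.23 at 20 weeks. Replicate 3 was lowest at each age and the groups did not overlap. Brca1 rose by 0.87 (SE 0.12, 1.82-fold, adjusted p = 0.000868). Fewer of the list passed without 15-week replicate 2 or 3 or 20-week replicate 4 (6 higher each) or 20-week replicate 1 or 2 (5 each), with medians of 0.26 to 0.31. Its helicase partner Brip1 rose by 0.63 (SE 0.07), its heterodimer partner Bard1 by 0.40 (SE 0.07, from 15-week levels below the lower quartile of all probe sets, 6.89) and the damage kinase Atm by 0.34 (SE 0.07). Fancd2, of the crosslink repair pathway, was called lower (-0.53, SE 0.06), and 3 of its 4 probe sets had a lower mean at 20 weeks. Its probe set of largest variance, a choice that includes the age difference, was called higher (0.30, SE 0.08), so its direction is not settled. In the p53 target list 3 of 18 passed as higher and 1 as lower, with a median of -0.06. The deposited values gave 9 higher and 1 lower, with a median of 0.18. Mdm2, the ubiquitin ligase of p53, rose by 0.41 (SE 0.07, adjusted p = 0.00189), and 2 of its 3 probe sets had a higher mean at 20 weeks. Perp, a p53 target of cell junctions, rose by 0.63 (0.0131), and Phlda3, an inhibitor of Akt, fell by 0.68 (0.00243). The kinase inhibitor Cdkn1a rose by 0.34 (0.0295), but its groups overlapped and its 2 probe sets disagreed in sign.

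**Figure D2:**
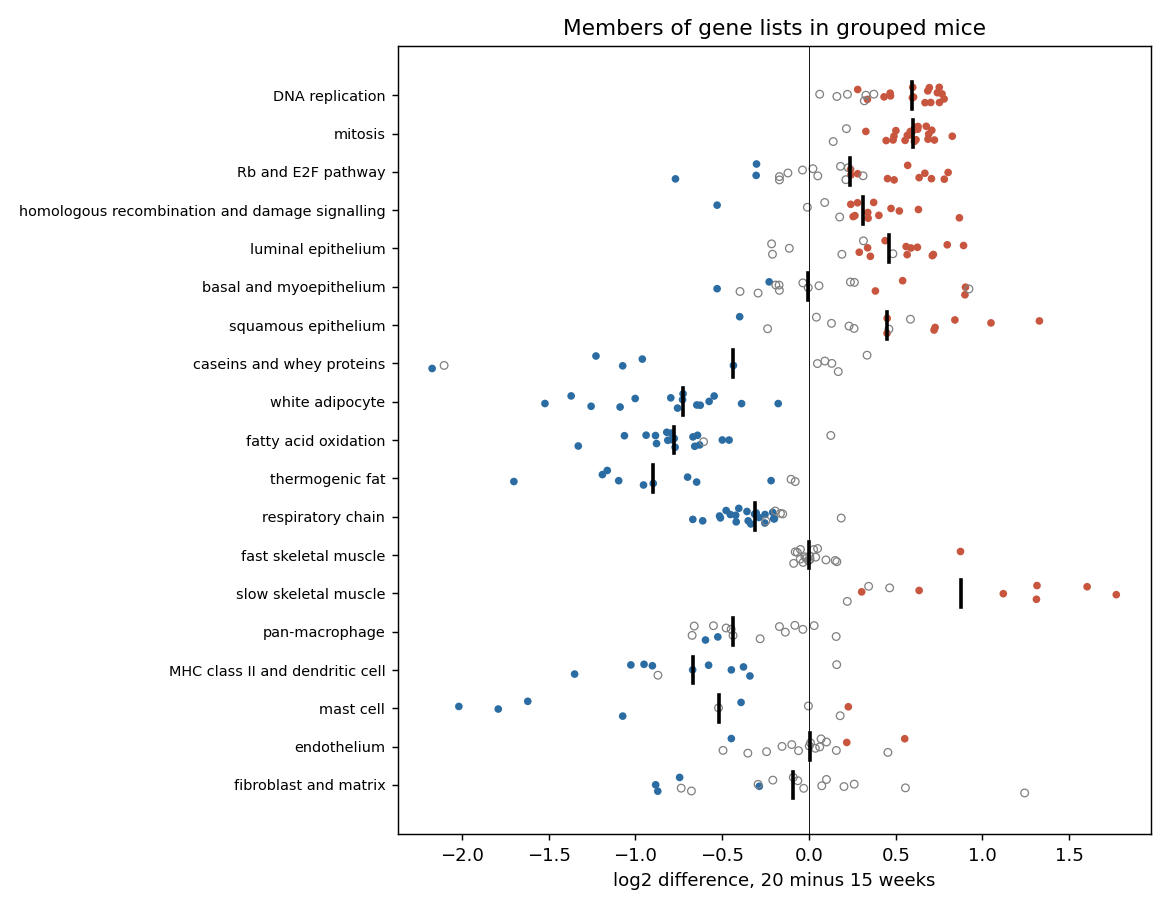
Each point is a gene of a list, with its log2 difference, 20 minus 15 weeks, on the x axis. Filled points passed an adjusted p of 0.05 (red higher, blue lower), open points did not, and vertical bars are list medians. The replication, mitosis and slow muscle lists lie to the right of 0, the adipocyte, oxidation and thermogenic lists to the left, and the fast muscle list is centred on 0.

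Markers of luminal epithelium, the cells that line the ducts, were higher at 20 weeks. Of 18 measured, 12 passed as higher and 0 as lower, with a median of 0.46. With the Gapdh covariate 5 passed and the median was 0.51. The keratin Krt8 lay at 11.92, 11.95, 12.01 and 11.88 at 15 weeks and at 12.40, 12.48, 12.30 and 12.34 at 20 weeks. The 20-week arrays were all above the 15-week arrays, with a difference of 0.44 (SE 0.06, adjusted p = 0.00105). The receptor tyrosine kinase Kit, a marker of luminal progenitors, rose by 0.57 (SE 0.06, adjusted p = 0.000224), though its 2 probe sets disagreed in sign. The tight junction protein Cldn7 rose by 0.89 (SE 0.16), the mucin Muc1 by 0.72 (SE 0.09) and the epithelial transcription factor Elf3 by 0.63 (SE 0.08). The array means of the list were 10.88, 10.92, 10.74 and 11.00 at 15 weeks and 11.30, 11.36, 11.16 and 11.33 at 20 weeks, without overlap.

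Markers of the basal and myoepithelial layer had 4 of 17 higher, 2 lower and a median of 0.00, beside 19.3% of all genes in each direction. In the deposited values 9 were higher and 0 lower, with a median of 0.26, and with array weights 6 were higher and 6 lower. The Gapdh covariate left 0 in either direction. Krt14, a basal keratin, lay at 11.98, 11.20, 10.82 and 11.85 and then at 12.47, 12.38, 12.10 and 12.49, a rise of 0.90 (SE 0.23, adjusted p = 0.0145) without overlap. Trp63, the transcription factor of basal cells, rose by 0.90 (SE 0.25, adjusted p = 0.0187), but its groups overlapped. The Trp63 call was lost without 15-week replicate 2 (0.86, adjusted p = 0.0508) or 20-week replicate 1 (0.80, 0.0531) or 2 (0.84, 0.0537). The integrin Itgb4 rose by 0.54 (0.00474). The 2 lower members are contractile genes, Cnn1 (-0.53, 0.0188) and, named after its value was seen, Tagln (-0.23, 0.0449). Cnn1 missed the threshold without 20-week replicate 1 (-0.50, 0.0503), and Tagln without any 15-week array or 20-week replicate 1 or 4 (0.0647 to 0.116). The list's own counts moved between 2 and 6 higher and 0 and 5 lower as single arrays were left out, with 5 lower without 20-week replicate 3. Of 15 squamous epithelial genes 7 passed as higher and 1 as lower (median 0.45), and in the deposited values 11 and 0. The secreted keratinocyte proteins Dmkn (1.05, SE 0.24) and Sbsn (0.84, SE 0.12) rose. Krt16 (0.72) and Flg (0.45) passed too, but lay below the lower quartile of all probe sets, 6.89, on all 8 arrays and were not shown to exceed background.

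Casein genes were lower at 20 weeks. Csn1s2a, an alpha-casein, lay at 10.94, 12.53, 10.13 and 10.91 at 15 weeks and at 7.95, 9.58, 8.59 and 9.72 at 20 weeks. The groups did not overlap, but each spanned a wide range. Its difference of -2.17 (SE 0.52, 4.5-fold, adjusted p = 0.0105) was the largest decrease of all called genes, and 4 of its 5 probe sets had a lower mean at 20 weeks. Csn1s1 fell from 11.52, 12.60, 11.79 and 11.16 to 10.43, 10.58, 10.52 and 10.64 (-1.23, SE 0.25, adjusted p = 0.00519). The kappa-casein gene Csn3 fell by 1.07 (0.00509) and Lalba, the whey protein of lactose synthesis, by 0.44 (0.0189, and 0.0514 without 20-week replicate 2). In the list of caseins and whey proteins 5 of 11 passed as lower and 0 as higher, with a median of -0.43. The deposited values gave 4 lower and 4 higher, with a median of -0.20, and the Gapdh covariate 0 in either direction, with a median of -0.34.

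Beta-casein, Csn2, lay at 11.68, 12.97, 11.61 and 11.80 and then at 10.58, 11.32, 11.00 and 11.31. Its groups did not overlap, and its difference was -0.96 (SE 0.29, adjusted p = 0.0287), or -0.64 without 15-week replicate 2, the highest array. Csn2 missed the threshold without replicate 1 (-0.80, adjusted p = 0.0776) or 3 (-0.94, 0.0508) of the 20-week group and with the Gapdh (-0.50, 0.424) or actin covariate (-0.86, 0.0708). Of the hormone receptors and signal transducers that govern the lobules, 3 of 12 passed as lower and 0 as higher (median -0.08). In the deposited values 1 was lower and 5 were higher (median 0.15), and with the Gapdh covariate 0 passed. The progesterone receptor Pgr lay at 8.93, 8.35, 9.41 and 9.11 and then at 7.88, 8.35, 7.96 and 8.12. The lowest array of the first group was level with the highest of the other (-0.88, SE 0.20, adjusted p = 0.00849). Of the 3 probe sets of Pgr, 2 had a lower mean at 20 weeks. The oestrogen receptor Esr1 fell by 0.57 (0.0205) with overlap, a call lost without 15-week replicate 2 (0.0595) or 20-week replicate 1 (0.0568) or 2 (0.0601), and Stat5a, which transmits the prolactin signal to casein genes, by 0.52 (0.012). Milk fat globule genes, of which 4 of 7 passed as lower and 1 as higher (median -0.54), include genes that adipocytes express too, such as the lipid droplet proteins Plin2 (-0.72, SE 0.10) and Cidea. With all 16 arrays in the fit 2 of them were lower, and with the Gapdh covariate 1.

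Genes of fat cells were lower at 20 weeks. All 15 white adipocyte markers passed as lower, against 19.3% of all genes, with a median of -0.73. Their array means were 12.16, 12.38, 12.75 and 12.24 at 15 weeks and 11.69, 11.44, 11.59 and 11.56 at 20 weeks, with replicate 3 the highest of the former. Pparg, the transcription factor of adipocyte differentiation, lay at 10.15, 10.61, 11.25 and 10.39 and then at 9.38, 9.27, 9.49 and 9.24. The 15-week arrays varied more, and all lay above the 20-week arrays. Pparg fell by 1.26 (SE 0.20, 2.39-fold, adjusted p = 0.00173). The glycerol channel Aqp7 fell by 1.52 (SE 0.14, adjusted p = 0.000182), the lipid droplet protein Cidec by 1.09 (0.00209), the fatty acid transporter Cd36 by 1.00 (0.000533) and the hormone-sensitive lipase Lipe by 0.73 (0.00168). With the Gapdh covariate 8 of the 15 passed, all lower.

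Genes listed under fatty acid and triglyceride synthesis fell less uniformly. Of 21 measured, 12 passed as lower and 0 as higher, with a median of -0.52. Acacb, the mitochondrial acetyl-CoA carboxylase, lay at 11.51, 11.70, 12.20 and 11.67 at 15 weeks and at 10.19, 10.25, 10.69 and 10.84 at 20 weeks, without overlap (-1.28, SE 0.18, adjusted p = 0.00101). Acyltransferases of triglyceride synthesis were among the others, with Dgat1 at -0.79 (0.00474), Agpat2 at -0.74 (0.00367) and Gpam at -0.52 (0.00336). Without 15-week replicate 1 the count was 16, and with the Gapdh covariate it was 4. Cholesterol synthesis had 1 of 19 lower, 0 higher and a median of -0.05, but 8 were higher and 1 lower in the deposited values, with a median of 0.20. With array weights 2 were higher and 7 lower, with cyclic loess scaling 4 were lower, and with all 16 arrays in the fit 1 was higher and 5 lower. Among single arrays left out, 5 were lower without 15-week replicate 1, 3 without 20-week replicate 4, and 2 were higher without 20-week replicate 3. Its called member was Insig1, the brake on the sterol regulatory factors, which fell from 11.13, 12.09, 12.32 and 11.86 to 10.48, 10.37, 10.30 and 10.74 (-1.38, SE 0.22, adjusted p = 0.00198). Insig1 is also expressed in fat cells.

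The oxidative side of metabolism was lower. In fatty acid oxidation 17 of 19 genes passed as lower and 0 as higher (median -0.78), and 6 were lower with the Gapdh covariate. Slc25a20, which carries acylcarnitines into mitochondria, lay at 12.05, 12.18, 12.41 and 12.03 and then at 10.80, 11.15, 11.33 and 11.14. The gap between the groups was wider than the range within either, and the difference was -1.06 (SE 0.12, adjusted p = 0.000434). The peroxisomal enzyme Ehhadh fell by 1.33 (SE 0.18), Decr1, of unsaturated fatty acid oxidation, by 0.88 (SE 0.12), and the electron carrier Etfb by 0.64 (SE 0.10). Of 25 nuclear-encoded respiratory chain subunits 20 passed as lower and 0 as higher, with a smaller median of -0.31. Without 20-week replicate 1 or 2 there were 12 and 13, in the deposited values 13 and with the Gapdh covariate 4. Sdhb of complex II fell by 0.52 (8e-04) and Ndufb8 of complex I by 0.51 (0.00135).

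Genes of thermogenic fat were also lower, 9 of 11, with a median of -0.90. That count was 4 with all 16 arrays in the fit, which then share 1 estimate of the spread, and 0 with the Gapdh covariate, with medians of -0.89 and -0.77. Ucp1, the uncoupling protein of brown and beige fat, lay at 13.58, 13.52, 13.60 and 13.25 at 15 weeks and at 11.64, 12.21, 12.93 and 12.40 at 20 weeks. The 20-week arrays were all lower and spread more widely, with replicate 1 at the bottom (-1.19, SE 0.23, adjusted p = 0.00378). Ucp1 had an adjusted p of 0.184 with all 16 arrays in the fit. Elovl3, the elongase induced in brown fat, fell by 1.70 (SE 0.31, 3.25-fold, adjusted p = 0.00324), and Ebf2, a transcription factor of brown fat precursors, by 0.70 (0.00187). Glycolysis genes had 3 of 16 higher, 3 lower and a median of -0.01. That is 18.8% in each direction, near the 19.3% of all genes. There was 1 higher without 15-week replicate 2 or 3 or 20-week replicate 1, 2 or 4. The Gapdh covariate left 0 higher and 1 lower. The lower genes were Pdk1, which restrains pyruvate oxidation (-0.84, 0.00276), Pfkl, the liver-type phosphofructokinase (-0.72, 0.00187), and Pfkfb3, which makes its activator (-0.76, 0.015). The higher genes included the glycolytic enzymes Aldoc (0.37, 0.00877) and Pgk1 (0.22, 0.0354).

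**Figure D3:**
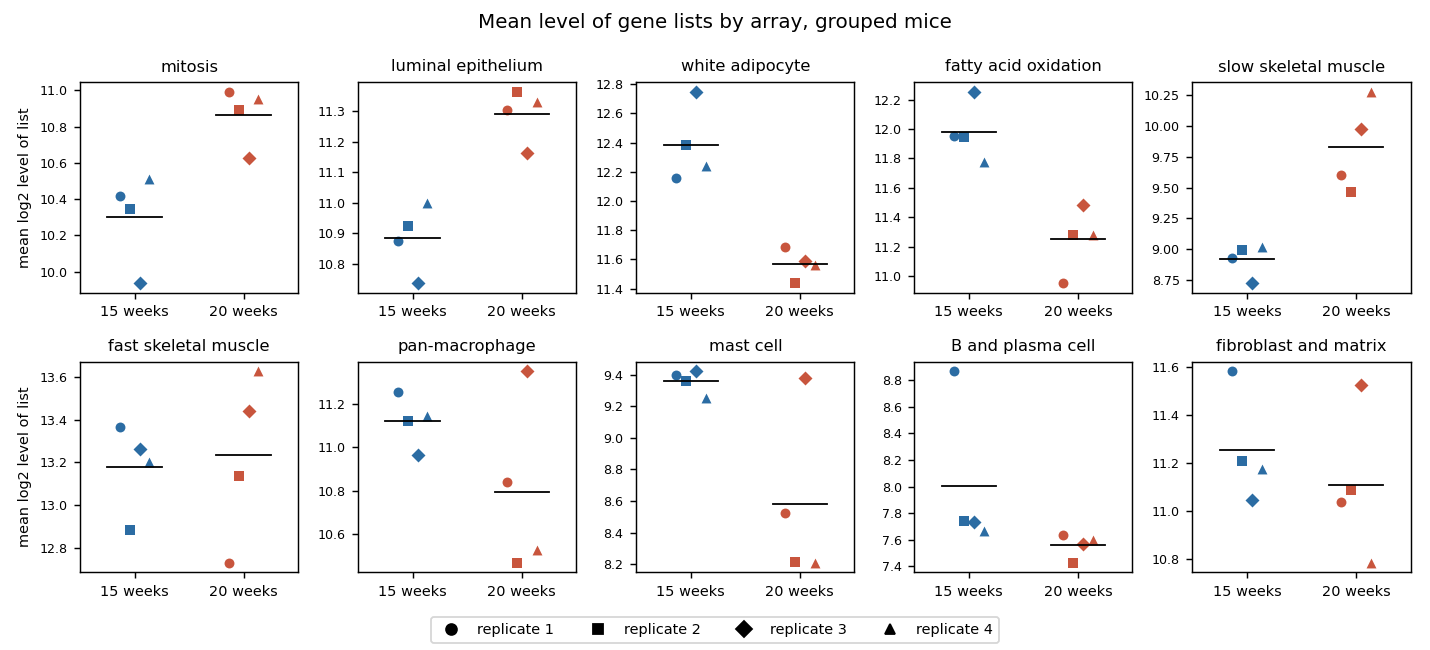
Each panel shows the mean log2 level of a gene list on the 8 arrays, with the replicate number as the symbol and the group mean as a line. Each y axis has its own range. The mitosis, luminal, adipocyte, fatty acid oxidation and slow muscle lists do not overlap between the ages, while 20-week replicate 3 lies among the 15-week arrays, or near them, in the macrophage, mast cell and matrix lists, and 15-week replicate 1 stands above the others in the B and plasma cell list.

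Skeletal muscle is present in the thoracic gland, and its fibre types parted. Fast fibre genes were at high levels at both ages and few differed: 1 of 18 passed as higher, 0 as lower, with a median of 0.00. Their array means were 13.37, 12.89, 13.26 and 13.20 at 15 weeks and 12.73, 13.14, 13.44 and 13.63 at 20 weeks, and overlapped. Of 10 slow fibre genes 7 passed as higher and 0 as lower, with a median of 0.88, and 3 with the Gapdh covariate. Tnnc1, the troponin C of slow and cardiac muscle, lay at 7.35, 7.99, 7.40 and 7.74 and then at 9.25, 8.66, 9.32 and 9.66. All 20-week arrays were higher, and replicate 2 was the lowest of them (1.60, SE 0.21, 3.04-fold, adjusted p = 0.000714). Myl2, the slow myosin light chain, lay at 7.72, 8.78, 7.49 and 7.90 and then at 9.76, 9.03, 9.70 and 10.49. The lowest 20-week array was just above the highest 15-week array, and the difference was 1.77 (SE 0.33, adjusted p = 0.0035). Tnni1 (1.12) and Tnnt1 (1.31), slow troponins, and Casq2, the calcium store protein of slow and cardiac fibres (0.64, adjusted p = 0.000159), rose too. The called fast list gene was Myh2, the myosin of oxidative fast fibres (0.87, SE 0.25, adjusted p = 0.0214), whose call was lost without 15-week replicate 2 (0.70, 0.0585). The part that the muscle content of each sample plays in other differences was not tested.

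Among immune lists, that of MHC class II and dendritic cells fell, while in most others the greater part of the members did not pass, and 2 arrays weigh on them. Antigen presentation genes of dendritic cells and other MHC class II cells had 9 of 11 lower, 0 higher and a median of -0.67, against 6 lower in the deposited values or with the Gapdh covariate. H2-Aa, an MHC class II chain, lay at 12.87, 12.51, 12.39 and 12.40 at 15 weeks and at 11.23, 10.60, 11.77 and 11.17 at 20 weeks. Its groups did not overlap, and it fell by 1.35 (SE 0.22, 2.55-fold, adjusted p = 0.00177). Xcr1, the chemokine receptor of cross-presenting dendritic cells, fell by 0.58 (SE 0.05, adjusted p = 0.000121), to levels below 6.89 on all 4 arrays, and the growth factor receptor Flt3 by 0.38 (SE 0.06, 0.00182).

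Counts of macrophage genes depended on single arrays, most of all on 20-week replicate 3. Of 15 general macrophage genes 2 passed as lower and 0 as higher, with a median of -0.44, and without 20-week replicate 3 there were 9 lower and the median was -0.68. The deposited values and the Gapdh covariate gave 0, array weights 7 and the actin covariate 6. Without 15-week replicate 2 or 20-week replicate 2 or 4 there were 0, and without any of the other 4 arrays 1. The macrophage surface protein Adgre1 lay at 11.12, 11.13, 10.95 and 11.04 and then at 10.59, 10.19, 11.00 and 10.36. Replicate 3 of the 20-week group lay within the range of the 15-week arrays, while the others were below it (-0.53, SE 0.15, adjusted p = 0.0219), and the call was lost without 15-week replicate 2 (0.0574) or 20-week replicate 2 (0.0563) or 4 (0.0599). Of 13 genes of resident and lipid-associated macrophages 4 passed as lower and 1 as higher (median -0.79), and without that array 7 were lower. The deposited values gave 2 lower and 2 higher, and the Gapdh covariate 1 and 1. Without 15-week replicate 2, 3 or 4 or 20-week replicate 1, 2 or 4 there were 2. Retnla, secreted by alternatively activated macrophages and in fat, lay at 12.92, 13.44, 13.20 and 13.06 and then at 11.22, 10.45, 12.10 and 10.64. Every 20-week array was lower, replicate 3 least so, and the difference was -2.05 (SE 0.31, 4.14-fold, adjusted p = 0.00139). The lectin Lgals3, which epithelium and macrophages both make, rose by 0.72 (SE 0.12, adjusted p = 0.0018).

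Mast cell protease genes showed the same array. Cma1, a chymase, lay at 11.05, 11.08, 11.16 and 10.69 at 15 weeks and at 9.29, 8.36, 10.65 and 8.52 at 20 weeks. The groups just failed to overlap, because 20-week replicate 3 was near the 15-week arrays and the others were far below (-1.79, SE 0.42, adjusted p = 0.00993). Mcpt4, another chymase of connective tissue mast cells, lay at 10.43, 10.61, 10.71 and 10.34 and then at 8.26, 7.84, 10.35 and 7.58, and here replicate 3 did overlap (-2.02, SE 0.51, adjusted p = 0.0126). In the mast cell list 5 of 9 passed as lower and 1, the transcription factor Gata2 that other cells share, as higher, with a median of -0.52 that was -0.78 without this array. The Gapdh covariate left 0 in either direction.

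Lymphocyte genes leaned on 15-week replicate 1. Its array mean was 8.87 in the B and plasma cell list, against 7.67 to 7.74 on the other 15-week arrays, and 8.86 in the T and NK cell list, against 8.27 to 8.28. The B and plasma cell list had 4 of 11 lower, 1 higher and a median of -0.52, which was -0.15 without that array. Its lower count was 2 without 15-week replicate 2 or 3 or 20-week replicate 1 or 3, 1 without 20-week replicate 4, in the deposited values or with control-centred scaling, and 0 without 20-week replicate 2. The B cell kinase Blk lay at 8.42, 7.92, 7.81 and 7.96 and then at 7.76, 7.44, 7.55 and 7.65, with the same array highest (-0.43, SE 0.13, adjusted p = 0.0259, and 0.0741 without 20-week replicate 2). The T and NK cell list had 4 of 18 lower and 0 higher (median -0.31, and -0.18 without that array), with 9 lower when arrays were weighted and 0 of the 7 genes left by the filter on dim genes. Gzma, the granzyme of NK and cytotoxic T cells, lay at 7.85, 7.83, 8.09 and 7.76 and then at 6.98, 6.83, 6.997 and 6.90. Here the 15-week replicate 1 was not high, and the groups were far apart (-0.96, SE 0.08, adjusted p = 9.39e-05). The 20-week arrays of Gzma lay close to the lower quartile of all probe sets, 6.89, so the size of its fall depends on that level. Nkg7, a cytotoxic granule protein, fell by 0.47 (0.000816). Neutrophil and inflammation genes had 3 of 17 higher and 2 lower, beside 19.3% of all genes in each direction, and 9 higher in the deposited values. The neutrophil granule genes Elane (-0.67, 0.000484) and Mpo (0.27, 0.0135) moved in opposite directions. Lcn2, which inflamed epithelium also secretes, rose by 0.79 (0.00633), and the acute phase protein Orm1, also made by fat cells, fell by 1.36 (0.00771).

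Stromal genes followed 20-week replicate 3 as well. Of 24 collagens and collagen-processing enzymes 1 passed as higher and 2 as lower (median -0.25), and without that array 13 were lower. With all 16 arrays in the fit, array weights or the actin covariate 7 were lower, and in the deposited values 3 were higher and 0 lower. Without 15-week replicate 2 there was 1, and without 15-week replicate 1 or 3 or 20-week replicate 1, 2 or 4 there were 0. The higher gene was P4ha2, a collagen prolyl hydroxylase (0.53, SE 0.07, adjusted p = 0.000911). Of 17 fibroblast and matrix genes 4 were lower and 0 higher (median -0.09), and 7 were lower without that array. Array weights gave 7 lower and 2 higher, and the Gapdh covariate 0 in either direction. Without 15-week replicate 1, high in this list, 3 were higher and 1 lower, and the median was 0.05. Without any of the other 6 arrays 1 or 2 were lower. Pdgfra, the growth factor receptor of fibroblasts, lay at 11.84, 11.85, 11.99 and 11.86 and then at 10.87, 10.79, 11.72 and 10.64. The fall of 0.88 (SE 0.20, adjusted p = 0.00839) came with replicate 3 just below the 15-week arrays. Endothelial genes had 2 of 17 higher, 1 lower and a median of 0.01, and without single arrays 0 to 2 were higher and 0 to 3 lower. In the deposited values 7 were higher and 0 lower, with a median of 0.26.

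Growth factor lists were unlike one another. Insulin-like growth factor genes had 2 of 12 higher and 2 lower, the Wnt pathway 4 of 19 and 4, and angiogenic ligands 1 of 9 and 2. In the TGF-beta family 7 of 16 passed as higher and 1 as lower (median 0.23). Inhba, a subunit of activin, lay at 9.47, 9.15, 8.86 and 9.45 and then at 10.09, 10.19, 9.96 and 10.12. The 20-week arrays lay close together and above the rest (0.86, SE 0.13, adjusted p = 0.00141). Its relative Inhbb rose by 0.51 (0.000689), the ligand Bmp2 by 1.19 (0.00914) and the inhibitor Smad7 by 0.35 (0.0139). Of 12 ErbB receptors and ligands 5 passed as higher and 1 as lower (median 0.27). With the Gapdh covariate 3 TGF-beta family genes and 1 ErbB gene were higher, and 0 lower. The receptors Erbb2 (0.41, 0.0101) and Erbb3 (0.37, 0.0143) and the ligands Tgfa (0.53, 0.00747) and Nrg2 (0.56, 0.000135) rose.

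Among all called genes, the largest increases named by rule were those of Cxcl5, Htra4, Myl2, Bst1, Dsg1a, Tnnc1, Megf10, Fgfbp1, Tnfrsf11b, Col8a1, Prg4 and Dynap, from 1.79 down to 1.39 on the log2 scale. Cxcl5, a chemokine that draws neutrophils, lay at 5.05, 5.03, 4.87 and 5.45 at 15 weeks and at 7.35, 7.21, 6.36 and 6.63 at 20 weeks. Its 15-week arrays were all below the lower quartile of 6.89 and not shown to exceed background, so its 3.45-fold difference depends on that level, as do those of the serine protease Htra4 (1.78), the desmosomal cadherin Dsg1a (1.65) and the cell surface receptor Megf10 (1.58). Bst1, an ADP-ribosyl cyclase of stromal and myeloid cells, lay at 7.45, 6.96, 6.82 and 7.63 and then at 9.02, 8.88, 8.96 and 9.04. The 20-week arrays were nearly alike and far above (1.76, SE 0.16, 3.39-fold, adjusted p = 0.000159). Fgfbp1, which frees fibroblast growth factors from matrix, lay at 8.55, 8.08, 7.81 and 8.99 and then at 10.14, 10.20, 9.12 and 10.02. Replicate 3 of the 20-week group was low but still above the 15-week arrays (1.51, SE 0.29, adjusted p = 0.00412). Tnfrsf11b, the decoy receptor for RANKL, rose by 1.48 (SE 0.33, adjusted p = 0.00735), with the lowest 20-week array just under the highest 15-week array. The short-chain collagen Col8a1 lay at 10.42, 9.09, 9.20 and 9.22 and then at 10.90, 10.97, 11.25 and 10.62. Replicate 1 was far above the other 15-week arrays, and the groups still did not overlap (1.45, SE 0.27, adjusted p = 0.00375). Prg4, the lubricating proteoglycan, rose by 1.40 (SE 0.35), and Dynap, a dynactin-binding membrane protein, by 1.39 (SE 0.33).

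The largest decreases named by rule were those of Csn1s2a, Ear3, Retnla, Inmt, Akr1c14, Mcpt4, B3galt2, Prdm8, Sycp3, Igfbp6, Cma1 and Ogn, from -2.17 to -1.78. Inmt, an indole methyltransferase, lay at 10.35, 10.49, 10.62 and 10.20 at 15 weeks and at 8.51, 7.90, 8.57 and 8.52 at 20 weeks. The gap between the groups was wider than the range within either (-2.04, SE 0.15, 4.11-fold, adjusted p = 6.07e-05). Igfbp6, which binds insulin-like growth factor II, lay at 11.52, 11.49, 11.77 and 11.43 and then at 9.59, 9.57, 10.52 and 9.36. Replicate 3 was the highest of the 20-week arrays and still below all 15-week arrays (-1.80, SE 0.22, adjusted p = 0.00053). Ogn, a small proteoglycan of connective tissue, fell by 1.78 (SE 0.46, adjusted p = 0.0138), but in replicate 3 it was 11.22, within the 15-week range of 11.20 to 11.46. Akr1c14, a steroid-converting reductase, fell by 2.02 (SE 0.31), the glycosyltransferase B3galt2 by 1.997 (SE 0.37), the zinc finger protein Prdm8 by 1.92 (SE 0.22) and the chromosome axis protein Sycp3 by 1.91 (SE 0.35). The 20-week level of Prdm8 and of Sycp3 was below 6.89 on 3 of 4 arrays each, so the size of either fall depends on that level. The eosinophil ribonuclease Ear3 fell by 2.07 (SE 0.24), belongs to a family of near-identical copies that its probe set may not tell apart, and at 20 weeks lay below 6.89 on all 4 arrays.

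**Figure D4:**
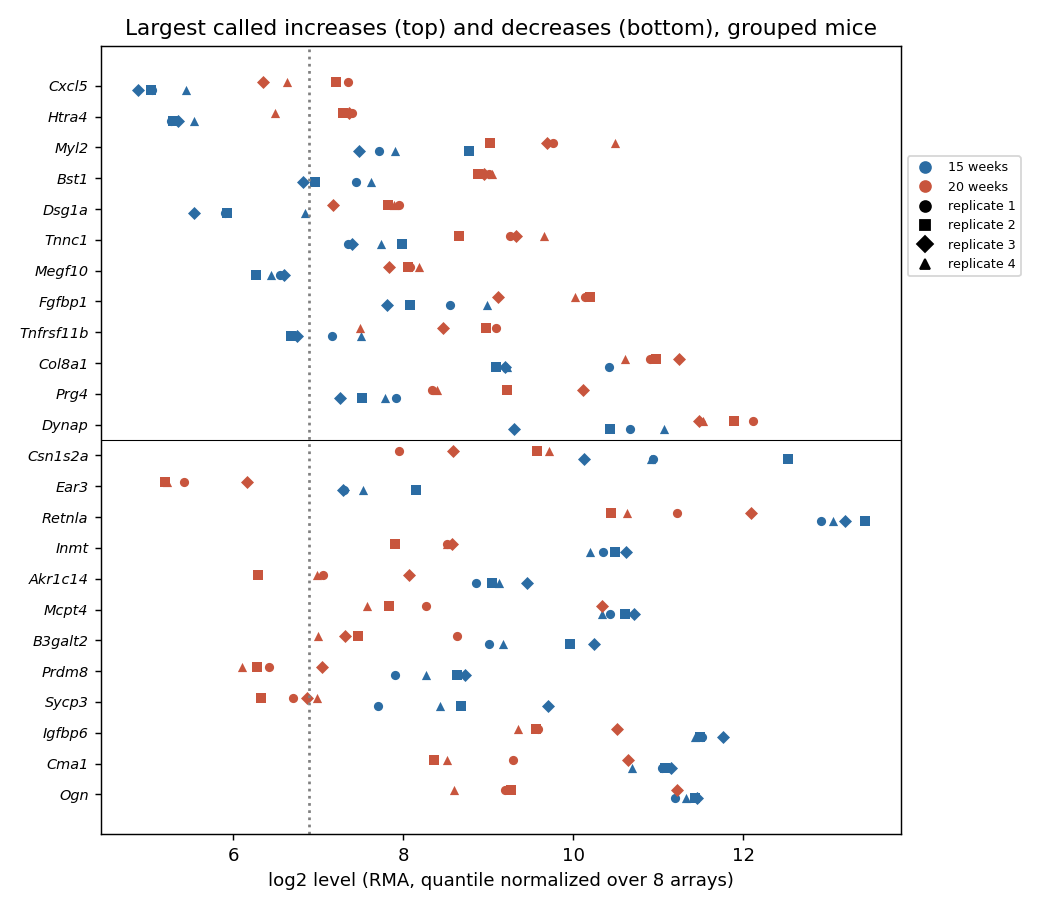
The log2 level of the 12 largest called increases (above the line) and decreases (below it) is shown for each of the 8 arrays, with age as colour and replicate number as symbol. The dotted line is the lower quartile of all probe sets, 6.89. Replicate 3 at 20 weeks lies close to the 15-week arrays for Mcpt4, Cma1 and Ogn.

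The age difference was set against that of isolated mice, to ask whether it depended on housing. In the isolated arrays 9176 genes (50.4%) passed, 4490 (24.7%) higher and 4686 (25.8%) lower. The test of the difference between both age effects, on all 16 arrays, called 2 genes (0.011%), while 2395 (13.2%) had an unadjusted p under 0.05. The count of 2 rests on single arrays: it was 77 without grouped 20-week replicate 3 and 173 without isolated 20-week replicate 4. One called gene was Csn2, whose level went from 12.01 ± 0.65 to 11.05 ± 0.35 (SD, n = 4) in grouped mice and from 11.71 ± 0.37 to 6.78 ± 0.77 in isolated mice. The fall was 4.01 smaller in grouped mice (SE 0.50, adjusted p = 0.011). The other was Sprr2f, a small proline-rich squamous protein with close relatives, which fell by 0.53 in grouped and by 1.57 in isolated mice (difference 1.04, SE 0.15, adjusted p = 0.0487), from levels of 6.40 or less in every grouped array. Its call was lost without any 1 of 11 of the 16 arrays (adjusted p = 0.052 to 0.175) and in eBayes without trend (0.0642). The next genes by p, Rgs13 (adjusted p = 0.0788), Dusp26 (0.122) and Sbk1 (0.122), did not pass.

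List medians were alike in both housing groups for some lists and unlike for others, though no list member except Csn2 passed the test of the difference. The replication median was 0.60 in grouped and 0.55 in isolated mice, and that of mitosis 0.60 and 0.53. The TGF-beta family had 0.23 in both, milk fat globule genes -0.54 and -0.56, and squamous genes 0.45 and 0.51. White adipocyte genes had -0.73 and -1.58, fatty acid and triglyceride synthesis -0.52 and -1.53, and thermogenic genes -0.90 and -1.44. Slow muscle genes had 0.88 and -0.52, and fast muscle genes 0.00 and -0.69. Macrophage genes had -0.44 and 0.40, and fibroblast and matrix genes -0.09 and 0.34. An unadjusted p under 0.05 for the difference was reached by 12 of 15 macrophage genes, 9 of 10 slow and 16 of 18 fast muscle genes and 17 of 21 lipid synthesis genes, beside 13.2% of all genes. It was reached by 7 of 15 white adipocyte, 6 of 17 fibroblast and matrix and 2 of 11 thermogenic genes, and by 0 of 23 replication and 0 of 24 mitosis genes. None of these passed the adjustment over all genes.

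**Figure D5:**
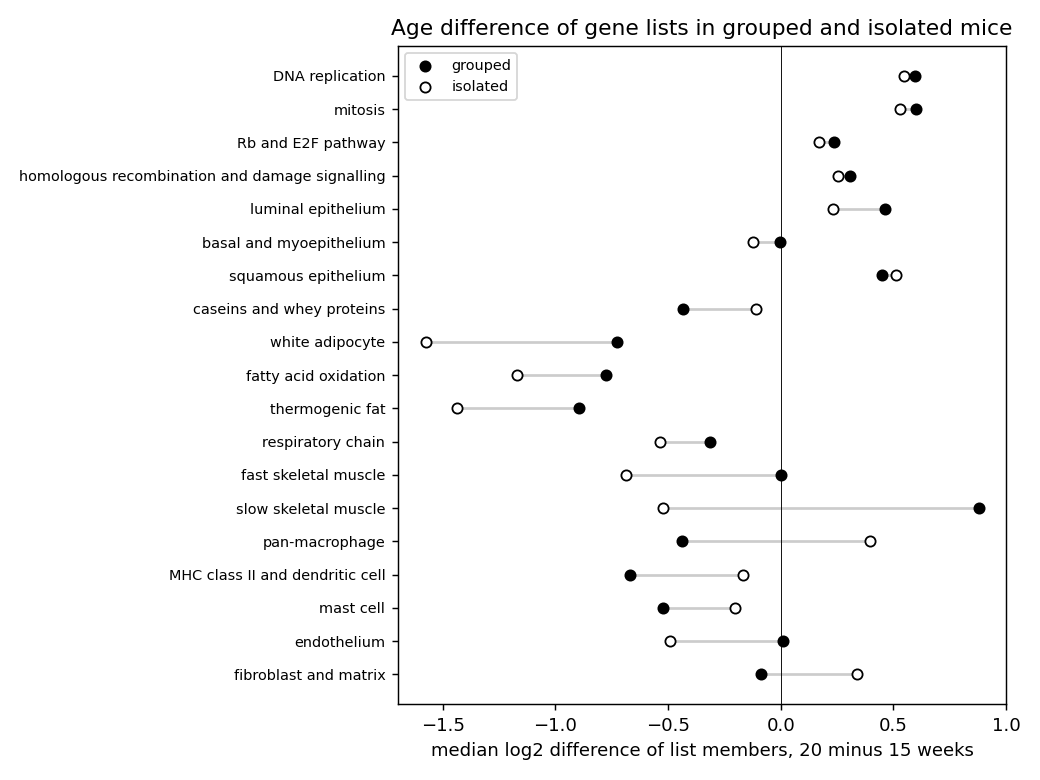
The median log2 difference, 20 minus 15 weeks, of the members of each gene list is shown for grouped (filled) and isolated mice (open). The replication and mitosis medians lie close together, while those of slow muscle, macrophage and fibroblast genes lie on opposite sides of 0.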

How the data were processed

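RNA of whole thoracic mammary glands of grouped mice was measured on 8 Affymetrix mouse arrays, 4 per age. The deposited values are log2 expression levels that the authors computed with RMA, a method of the affy software, according to the submitters' processing notes. The sources used here name no version and no filter on probe sets. Whether the numbered arrays of a group are separate mice is not stated, so p-values then measure only the spread between these samples, which may be technical. No pair of arrays of an age was a duplicate, as the SD of a pair's difference was 0.157 or more. Array data carry no read depth, and a difference within the reported SE is not shown.

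The 8 arrays were quantile normalized together, because arrays of each age had a distribution of their own. Of 45101 probe sets, 34945 had 1 gene symbol in the platform's gene table, 932 several and 9160 none, and 64 were controls. Entrez identifiers of 34741 were found in the RefSeq table of GRCm38.p6, with 0 symbols changed. For each of 18193 genes 1 single-symbol probe set was tested, that of the highest level averaged across the 16 arrays, with no filter on dim probe sets. Of the 10092 probe sets without a single symbol, tested apart, 3688 passed. Of the 3382 called genes with several probe sets, all probe sets of 2105 (62.2%) had the same sign.

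Differences were fitted with limma 3.58.1 in R 4.3.3 (lmFit, eBayes with an intensity trend). The threshold was 0.05 on p-values adjusted over all genes by Benjamini and Hochberg's method. SE is that of the fit. The isolated comparison was fitted likewise on its own 8 arrays, and the difference of both age effects on all 16. Control probe sets were tested by two-sided exact permutation, over 35 splits of 8 arrays. Simulated data with known changes were used to test each fit. The grouped arrays of equal number did not pair (correlations of -0.04, -0.02, 0.25 and -0.15), so no block was used.

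The members and the 44 gene lists (718 memberships, 671 measured) were chosen with earlier results of these data known, so a list's direction is no independent support. The text names the 12 largest increases and decreases among called genes, up to 5 members of each described list with the smallest p, and the 5 genes with the smallest p for the difference between housing groups. Any other gene is said to be named after its value was seen. Fold is 2 to the power of the log2 difference. Alternatives were other scalings, a filter on dim genes, other probe set choices, eBayes settings, array weights (statmod 1.5.0), a replicate block, a fit on all 16 arrays, control covariates, a test against a minimum difference and leaving out each array. Leaving out 2 arrays together, and picking probe sets by the 8 grouped arrays, were chosen after seeing the data.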

Additional observations from a re-analysis of the deposited data

Results flagged for a closer look

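Of 120 groups of 4 arrays examined, 9 held an array far from the other 3. Chance flags about 1 in 20 groups. The B and plasma cell list mean of 15-week replicate 1 was 8.87 against 7.67 to 7.74, and its T and NK cell mean was 8.86 against 8.27 to 8.28. The same array had Col8a1, the short-chain collagen, at 10.42 against 9.09 to 9.22. At 15 weeks the respiratory chain mean of replicate 3 was 13.00 against 12.82 to 12.83, and the glycolysis mean of replicate 2 was 11.38 against 11.60 to 11.61. At 20 weeks replicate 3 was low for the homologous recombination and damage signalling list (9.14 against 9.34 to 9.37) and for Fgfbp1 (9.12 against 10.02 to 10.20). Replicate 4 was low for the protease Htra4 (6.50 against 7.30 to 7.40), and replicate 2 for the methyltransferase Inmt (7.90 against 8.51 to 8.57).

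For 2 genes the age difference itself differed between grouped and isolated mice by limma's test on 16 arrays. Beta-casein, Csn2, fell 4.01 less on the log2 scale in grouped mice (SE 0.50, adjusted p = 0.011). All 4 grouped 20-week arrays lay between 10.58 and 11.32, while the isolated 20-week mean was 6.78 ± 0.77 (SD, n = 4). The isolated arrays were normalized apart, so 6.89, the lower quartile in the grouped arrays, is only a rough guide to this mean. Sprr2f fell 1.04 less in grouped mice (SE 0.15, adjusted p = 0.0487) and lay at 6.40 or less on all grouped arrays, below their lower quartile of 6.89. Its call was lost without any 1 of 11 of the 16 arrays.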

How the results depend on the processing

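The count of 7022 called genes was 11362 on the deposited values with no further normalization, 4169 with the filter at the 40th percentile (10916 genes tested), 1927 with the Gapdh control covariate and 72 in the test against a log2 difference of 0.5, where fewer or larger differences can pass by construction in the filtered and the minimum-difference fits; elsewhere the cause was not tested. It lay between 6252 and 9134 under the other fits on all 8 grouped arrays, and between 5121 and 7063 without single arrays. With the replicate number as a block it was 6423. That block rests on shared numbers only: of the 4 pairs 1 correlated best with its own number. The split of calls was 59.4% higher with the probe set of largest variance, where 155 genes were called in the opposite direction. The count of 2 genes whose age difference differed with housing was 1 with the filter and 1 with eBayes without trend, 3 with the probe set of largest variance and 2 with the replicate block. Without single arrays it ran from 1 to 173.

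Of 134 named genes followed through these settings, 66 lost their call with the Gapdh covariate and 121 in the test against 0.5. Under any other setting 13 or fewer lost it, mostly genes with small differences. With no further normalization 13 lost it, among them Adgre1, Flt3, Stat5a, Lalba and Sprr2f. Fancd2 turned from -0.53 to 0.30 with the probe set of largest variance, and Tpx2, not called, from 0.22 to -0.022 with the Gapdh covariate. Of 884 list medians under the alternatives, 834 stayed within the spread between arrays. The eBayes settings, the replicate block and the test against 0.5 leave every median unchanged by construction. Their medians count among the 834, so that count overstates how stable the medians are. Array signal near the lower quartile, 6.89, limits Krt16, Flg, Sprr2f, Bard1, Cxcl5, Htra4, Dsg1a, Megf10, Ear3, Prdm8, Sycp3, Xcr1, Gzma, Nrg1, Rgs13 and Tnfrsf11b.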

Other observations

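Clock genes were measured at a fixed hour of the dark phase at both ages, and 4 of 15 passed as higher and 2 as lower, with a median of 0.19 and -0.01 in isolated mice. With arrays centred on the bacterial and unspiked controls 7 were higher and 0 lower, in the deposited values 11 and 0, and without 20-week replicate 1 the counts were 5 and 0. Nr1d2, a nuclear receptor that represses clock genes, lay at 10.72, 10.76, 10.50 and 10.97 at 15 weeks and at 11.34, 11.49, 11.17 and 11.39 at 20 weeks. The groups did not overlap (0.61, SE 0.11, adjusted p = 0.00259). The period genes Per1 (0.47, SE 0.11, 0.00986) and Per3 (0.32, SE 0.07, 0.00874) and the repressor Ciart (0.29, SE 0.08, 0.0169) rose. The cryptochrome Cry1 fell by 0.23 (SE 0.07, 0.0185), a call lost without 20-week replicate 1 (0.0502) and with the control-centred scaling (0.0613).

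Hypoxia response genes were divided, with 6 of 12 higher and 3 lower (median 0.31, and 0.40 in isolated mice). Car9, the carbonic anhydrase of hypoxic cells, lay at 8.65, 8.54, 8.29 and 9.04 at 15 weeks and at 9.96, 9.46, 9.04 and 9.67 at 20 weeks, with replicate 3 of the latter just under the highest 15-week array (0.90, SE 0.20, adjusted p = 0.00786). Ndrg1, a stress-induced protein of epithelium, rose by 0.53 (SE 0.10, 0.00406). The lower members were Bnip3, a mitochondrial protein of mitophagy (-0.74, SE 0.11, 0.00154), and Pdk1 and Pfkfb3, which the glycolysis list holds too. With the Gapdh covariate 0 were higher and 1 lower.

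The remaining lists are read against 19.3% of all genes called in each direction. The interferon list had 1 of 17 higher and 2 lower, chemokines 3 of 21 and 3, and matrix proteases and inhibitors 4 of 18 and 4. Glucocorticoid response genes had 5 of 12 higher and 1 lower (median 0.18), and immediate early genes 3 of 10 and 1 (median 0.26). Schwann cell markers had 0 of 4 higher and 1 lower, and red blood cell genes 0 of 3 in either direction, where all were tested with limma at the same threshold.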
